A study of Mus musculus with 10 samples.

Results

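Long intergenic noncoding RNAs (lincRNAs) of the mouse heart were followed across saline and lipopolysaccharide (LPS) injection. A gene was taken when the count table gave its biotype as lincRNA and its reads summed to at least 200 over the 10 libraries. The lincRNAs were thus chosen by a measured value, the sum over both groups and not their difference, which left 144 of 5559 lincRNA rows (2.59%) and of 54532 rows in all. The hearts came from C57BL/6 mice aged 8 weeks. One group of 5 mice had received saline and the other group of 5 had received LPS 24 h before, a bacterial cell wall component used as a model of sepsis. Dose, sex and batch are not given, and the labels number each library as a mouse of its own. RNA of the whole heart was sequenced, so fewer cells of a type and less RNA per cell cannot be told apart.

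LincRNAs are transcribed by RNA polymerase II, capped and often spliced like mRNAs, but carry no long reading frame. Some work as scaffolds of nuclear bodies, some act on genes beside them, and others are the precursors from which miRNAs or snoRNAs are cut. Many are made at low levels and in few cell types, and several are known to be induced by Toll-like receptor or interferon signalling. A biotype is an annotator's label: AW112010 and 1810058I24Rik, both taken here, are known to encode small proteins.

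Of the 144 lincRNAs, 9 contain mature miRNAs of RefSeq, 28 in all. Among these hosts, 2 rose after LPS (Mir155hg and Mir17hg) and 2 fell (H19 and Ftx), while 5 did not pass the test. These 2 and 2 of 9 lie near the 18.9% of all genes tested that rose and the 21% that fell. The miRNAs that lie within the hosts that moved are the part of these transcripts with a known product, so those named in the results are printed 5′ to 3′ as RefSeq gives them on GRCm38.p6, with the seed (bases 2 to 8) in capitals. The first is cut from Mir155hg on chromosome 16, the next 5 from Mir17hg on chromosome 14, and the last pair from H19 on chromosome 7 and Ftx on the X chromosome.
miR-155-5p: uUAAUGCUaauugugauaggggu
miR-17-5p: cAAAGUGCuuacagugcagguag
miR-20a-5p: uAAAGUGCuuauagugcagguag
miR-19a-3p: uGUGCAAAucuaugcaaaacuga
miR-19b-3p: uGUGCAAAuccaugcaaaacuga
miR-92a-3p: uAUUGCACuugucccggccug
miR-675-5p: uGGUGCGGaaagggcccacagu
miR-421-5p: cUCAUUAAauguuuguugaau
In the Mir17hg cluster, miR-17-5p and miR-20a-5p share the seed AAAGUGC, and miR-19a-3p and miR-19b-3p share GUGCAAA. The seeds of miR-155-5p, miR-675-5p and miR-421-5p each occurred once among the mature miRNAs of the hosts that moved. The libraries measured the host transcripts and not the mature miRNAs.

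Libraries held 14607969 to 17012372 reads, of which the 144 lincRNAs held 0.180% to 0.222%. Each of the 144 had a read in every library, and the 5 most abundant ones held 46.8% to 57.6% of their reads. One control library, Saline 5, stood apart from the other 4: 14 interferon and inflammatory genes listed for reference summed to 4345 CPM in it, at most 429 CPM in Saline 1 to 4, and 9849 to 18580 CPM after LPS. CPM are a gene's counts per 1000000 reads after TMM scaling of the libraries. The 6 cardiomyocyte markers were abundant in every library, and none of them passed the test.

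After LPS, 19 of the 144 lincRNAs rose and 15 fell, a share of 23.6%, against 39.9% of all 13864 genes tested and 41.6% of the protein-coding ones. Among the genes tested, 18.9% rose and 21% fell, against 13.2% and 10.4% of the lincRNAs. The change was at least 2-fold in 12 of the lincRNAs that rose and in 6 of those that fell. A gene counts as changed when edgeR's quasi-likelihood test gave an adjusted p under 0.05 over all genes tested. The median log2 fold change was 0.0084 for the lincRNAs and -0.025 for all genes, and the median size of the change, regardless of sign, was 0.34 and 0.32. The count of falls depended on the scaling: 19 rose and 15 fell with TMM, 17 and 26 with upper quartile scaling, and 16 and 36 with total count scaling. The share that rose among the calls was 55.9%, 39.5% and 30.8% for the lincRNAs and 47.3%, 31.1% and 22.9% for all genes tested. Those scalings moved the median of all genes by -0.16 and -0.27 on the log2 scale.

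**Figure D1:**
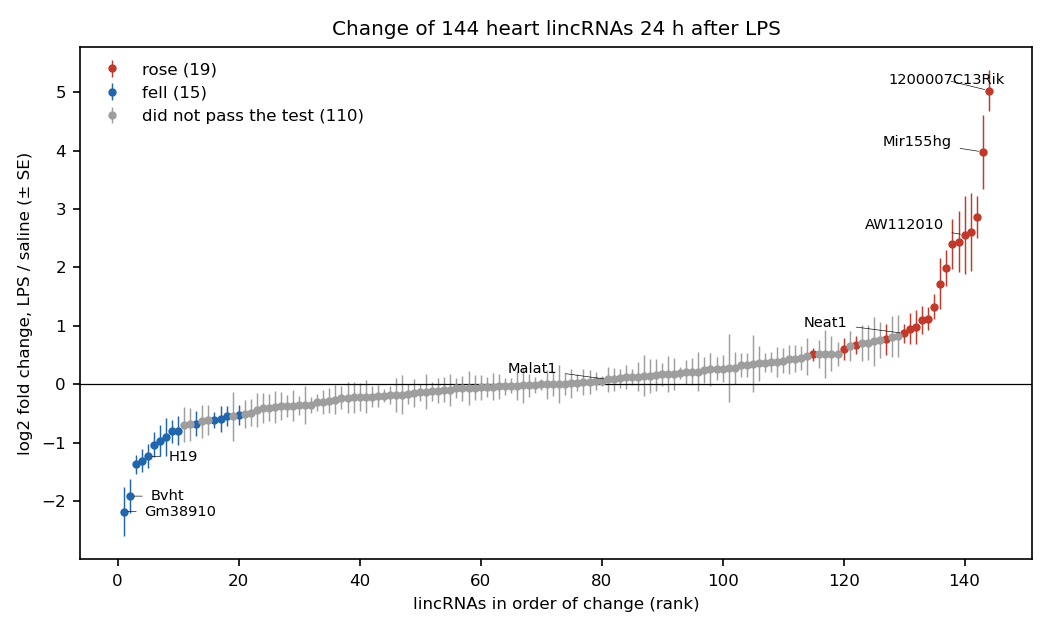
Log2 fold change (LPS over saline) of the 144 lincRNAs in order of size, with standard errors; red points rose, blue points fell, and grey points did not pass the test. The largest rise is that of 1200007C13Rik at 5.02 and the largest fall that of Gm38910 at -2.17.

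The lincRNAs were thinly covered. Their median summed count was 576, against 2831 for protein-coding genes tested, and 107 of them had fewer than 1000 reads. Of the 66 lincRNAs with 200 to under 500 reads, 13 passed the test (19.7%), against 43.8% of protein-coding genes in that range. From 500 to under 1000 reads the shares were 19.5% of 41 lincRNAs and 45.3% of coding genes, and from 1000 to under 5000 reads 29.6% of 27 and 42.3%. With 5000 reads and more, 5 of 10 lincRNAs (50%) and 40.5% of coding genes passed. The share was therefore lower than that of coding genes in the 3 lower ranges and not in the highest, where 10 lincRNAs give little precision.

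**Figure D2:**
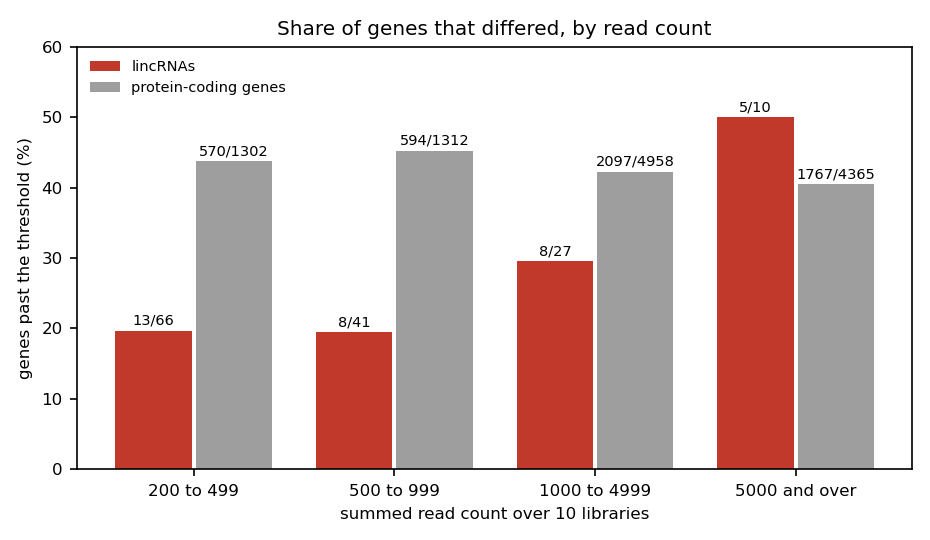
Share of genes past the threshold (%) by summed read count over the 10 libraries, for lincRNAs (red) and protein-coding genes (grey), with the numbers of genes above the bars. The lincRNA share is 19.7% in the lowest range and 50% in the highest.

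A gene is said not to overlap when every LPS library lay above or below every saline library. This held for 22 of the 144 lincRNAs (15.3%), against 28.4% of all genes tested, and 13 of these 22 rose and 8 fell. Because the sum of 200 reads counts both groups, 18 lincRNAs reached it only through the group in which they were higher: 6 that rose, 3 that fell and 9 that did not pass. The 6 were 1200007C13Rik, Mir155hg, 9330175E14Rik, Halr1, C230035I16Rik and Gm43660, and the 3 were Bvht, Ftx and Gm38910. Their p-values and the separation of their groups are not independent of that limit. Mir155hg, for example, had 53 reads in the saline libraries and 657 in the LPS libraries, and Bvht had 377 and 79. At the limit itself, Gm43660 (202 reads) and Gm38910 (206 reads) were taken, while Zfp469 (197 reads) and Gm10747 (198 reads) were not.

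The strongest rises were those of lincRNAs barely present in the control hearts. 1200007C13Rik (chromosome 2, 167827693 to 167833646, minus strand, GRCm38) measured 0.104, 0.0557, 0.280, 0.116 and 0.475 CPM in Saline 1 to 5 and 7.13, 5.68, 6.33, 6.63 and 8.51 CPM in LPS 1 to 5. The groups did not overlap, and the highest control lay far below the lowest LPS library. The log2 fold change was 5.02 ± 0.35 (SE, edgeR adjusted p = 2.05e-07), on 18 reads in all saline libraries and 477 in all LPS libraries.

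Mir155hg (chromosome 16, 84703167 to 84715245, plus strand), the precursor of miR-155 and known to be induced in activated macrophages and lymphocytes, measured 0.157, 0.446, 0.280, 0.116 and 2.08 CPM in saline and 13.7, 10.7, 5.34, 11.5 and 6.84 CPM after LPS. All LPS libraries lay above the controls, and Saline 5 stood above the other controls. The log2 fold change was 3.98 ± 0.63 (edgeR adjusted p = 0.000698), and 5.22 without Saline 5. Mir17hg (chromosome 14, 115042879 to 115046727, plus strand), which carries the miR-17 to miR-92a cluster known for its part in cell proliferation, rose from 1.5 ± 0.29 to 3.23 ± 0.83 CPM (SD, n = 5), by 1.1 ± 0.24 on the log2 scale (edgeR adjusted p = 0.00189). Its groups did not overlap either, with a control maximum of 1.84 CPM and an LPS minimum of 2.33 CPM.

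AW112010 (chromosome 19, 11047617 to 11050566, minus strand), known to be induced in immune cells by bacteria and interferon, was the lincRNA with the highest mean level per length. It measured 12.2, 29.3, 17.9, 18.1 and 114 CPM in saline and 325, 225, 191, 219 and 163 CPM after LPS. The LPS libraries all exceeded the controls, and Saline 5 lay between the other controls and the LPS group. The log2 fold change was 2.56 ± 0.66 (edgeR adjusted p = 0.0148), and 3.54 without Saline 5. On the authors' FPKM scale, which divides by gene length, its level was 52.3 ± 58.6 in saline and 313 ± 85.7 after LPS.

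A pair of further rises had the same shape, with Saline 5 above the other controls. 9330175E14Rik (chromosome 8, 94422898 to 94435103, minus strand) measured 0.261, 0.947, 0.0561, 0.405 and 3.15 CPM in saline and 5.12, 6.61, 4.05, 7.04 and 6.4 CPM after LPS, and Gdap10 (chromosome 12, 32821872 to 32826904, plus strand) measured 1.46, 2.45, 0.841, 1.04 and 6.42 CPM and then 17.1, 15.6, 8.23, 14 and 11.2 CPM. Neither gene overlapped between the groups. 9330175E14Rik rose by 2.61 ± 0.67 on the log2 scale (edgeR adjusted p = 0.0114) and by 3.79 without Saline 5. Gdap10 rose by 2.44 ± 0.52 (edgeR adjusted p = 0.00438) and by 3.18 without Saline 5.

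Gm39090 (chromosome 7, 127691935 to 127700793, plus strand) rose from 1.5 ± 0.92 to 10.9 ± 3.56 CPM, by 2.86 ± 0.36 on the log2 scale (edgeR adjusted p = 5.67e-05). Halr1 (chromosome 6, 52102949 to 52113684, plus strand), which lies beside the Hoxa genes and is known to act on them, measured 0.783, 0.613, 0.617, 0.868 and 1.19 CPM in saline and 2.42, 2.57, 5.59, 1.97 and 8.95 CPM after LPS. It was highest in LPS 3 and LPS 5, and no LPS library reached down to the controls. Halr1 had a log2 fold change of 2.40 ± 0.43 (edgeR adjusted p = 0.000638). Gm26809 (chromosome 6, 18844220 to 18847360, plus strand) rose from 20.8 ± 9.30 to 82.5 ± 22.3 CPM, by 1.99 ± 0.31 (edgeR adjusted p = 0.000665), and rests on 7508 reads. Of the exon length of Gm26809, 28.7% is shared with Gm20186, another of the 144, and their reads cannot be told apart.

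Neat1 (chromosome 19, 5824708 to 5845478, minus strand), the scaffold of paraspeckles, the nuclear bodies that hold back RNAs and RNA-binding proteins, measured 84.2, 113, 84.6, 121 and 93.0 CPM in saline and 241, 187, 120, 195 and 166 CPM after LPS. LPS 3 lay at the level of the highest control, Saline 4, and the other LPS libraries were above all controls. Neat1 rose by 0.87 ± 0.17 on the log2 scale (edgeR adjusted p = 0.00103). Malat1 (chromosome 19, 5795690 to 5802672, minus strand), the RNA of nuclear speckles that is encoded beside Neat1, measured 238 ± 65.8 CPM in saline and 253 ± 63.4 CPM after LPS. Malat1 had a log2 fold change of 0.086 ± 0.22 (edgeR adjusted p = 0.783), and its sign turned with total count scaling (-0.17) and upper quartile scaling (-0.068).

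The other lincRNAs that rose were C230035I16Rik (log2 fold change 1.72), Gm44226 (1.33), AI839979 (1.13), 2310001H17Rik (0.98), Gm26917 (0.95), Gm43660 (0.77), Gm5532 (0.67), 4930429F24Rik (0.61) and Gm43672 (0.51). Gm5532 was the most abundant of these, at 58.5 ± 9.92 CPM in saline and 93.4 ± 19.6 CPM after LPS, with no overlap. Gm26917 did not separate the groups: LPS 1 reached 8.99 CPM while LPS 5, at 2.76 CPM, lay within the controls. The call of Gm43660 was lost when Saline 3 or 4 or LPS 1, 2 or 4 was left out (edgeR adjusted p of 0.0551 to 0.0823), and that of 4930429F24Rik without Saline 3 (0.0544). Both calls were also lost with upper quartile (0.0742 and 0.0631) and total count scaling (0.139 and 0.146), that of Gm43660 with no filter on low counts (0.0802), and that of Gm43672 with total count scaling (0.0870). In Gm44226, 54.3% of the exon length is shared with 4833403J16Rik, so that reads of the pair cannot be told apart.

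**Figure D3:**
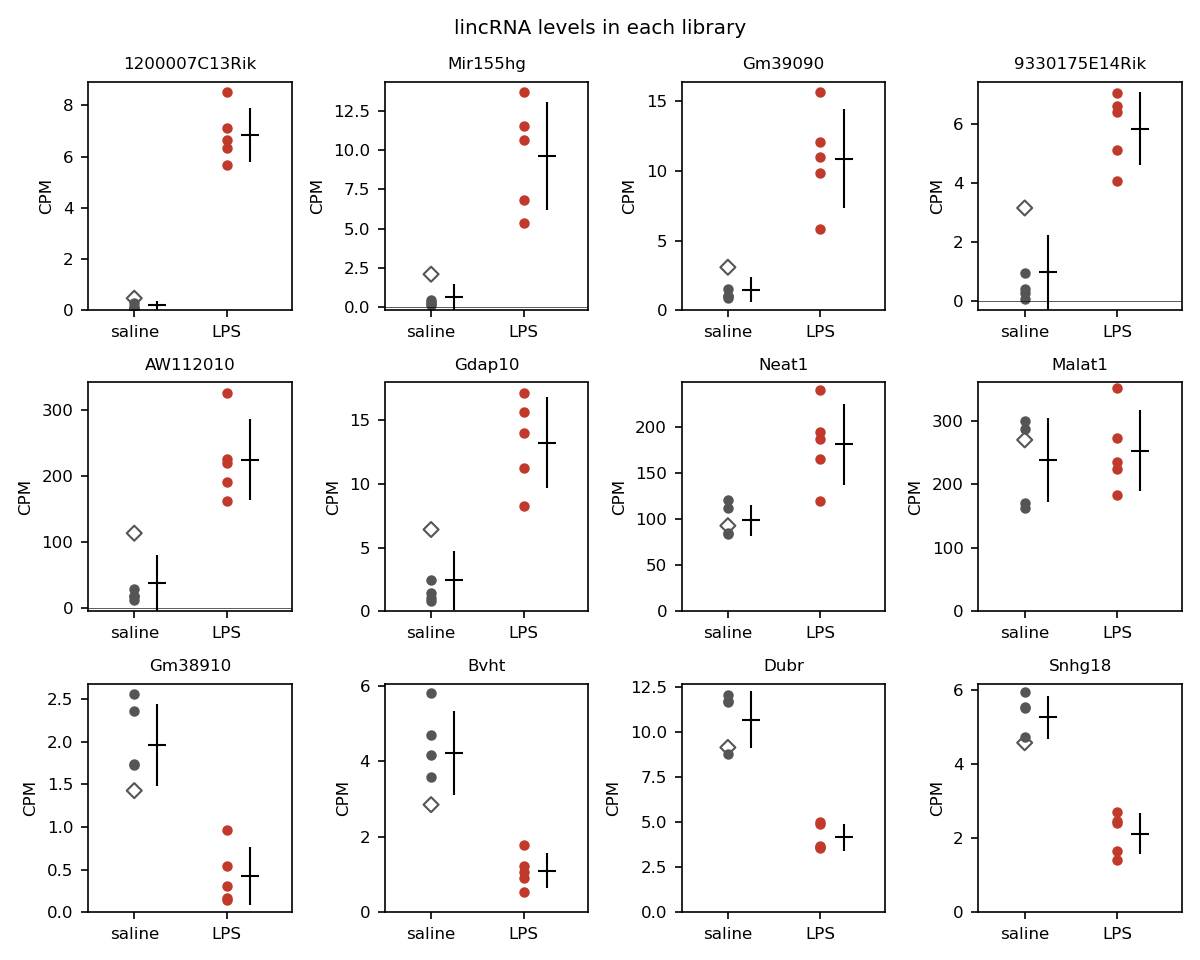
CPM in each library for 12 lincRNAs, with saline libraries in grey (Saline 5 as an open diamond), LPS libraries in red, and the mean with SD (n = 5) beside each group. Saline 5 is the highest control for the 6 leading rises, Neat1 overlaps little, Malat1 overlaps throughout, and the 4 leading falls do not overlap.

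The largest falls were smaller than the largest rises. H19 (chromosome 7, 142575529 to 142578143, minus strand), an imprinted RNA of the maternal allele that is abundant in the embryo and carries miR-675, measured 80.2, 54.1, 45.7, 45.5 and 61.4 CPM in saline and 21.4, 16.3, 33.9, 26 and 24.6 CPM after LPS. The groups did not overlap, with LPS 3 the nearest to the controls. H19 had a log2 fold change of -1.23 ± 0.20 (edgeR adjusted p = 0.000509).

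Bvht (plus strand of chromosome 18), named Braveheart for its part in the commitment of cells to the cardiac lineage, measured 4.17, 5.80, 3.59, 4.69 and 2.85 CPM in saline and 0.899, 0.545, 1.78, 1.06 and 1.24 CPM after LPS. Again no LPS library reached the controls, of which Saline 5 was the lowest. This was a log2 fold change of -1.91 ± 0.29 (edgeR adjusted p = 0.000142). Dubr (chromosome 16, 50719294 to 50732773, minus strand), described in the differentiation of skeletal muscle, fell from 10.7 ± 1.58 to 4.16 ± 0.74 CPM, by 1.36 ± 0.16 on the log2 scale (edgeR adjusted p = 1.67e-05).

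Gm38910 (chromosome 6, 134605234 to 134607681, minus strand) showed the largest fall, from 1.96 ± 0.48 to 0.426 ± 0.343 CPM, with a log2 fold change of -2.17 ± 0.42 (edgeR adjusted p = 0.000823) on 206 reads in all. Snhg18 (chromosome 15, 32240565 to 32244662, minus strand), a host of a snoRNA, measured 5.53, 4.74, 5.95, 5.5 and 4.58 CPM in saline and 1.66, 1.40, 2.7, 2.46 and 2.40 CPM after LPS. Its groups lay well apart, and the log2 fold change was -1.30 ± 0.20 (edgeR adjusted p = 0.000175). Gm46430 (-1.03), Gm37494 (-0.96), 4632415L05Rik (-0.80), BC002059 (-0.79), E430024I08Rik (-0.67) and Prr33 (-0.61) also fell.

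Ftx (chromosome X, 103560907 to 103623754, minus strand), an RNA of the X-inactivation centre, measured 1.77, 1.84, 1.74, 1.79 and 1.72 CPM in saline and 0.553, 1.48, 0.983, 0.328 and 1.38 CPM after LPS. The controls were close together and the LPS libraries spread below them. Its log2 fold change of -0.90 ± 0.33 (edgeR adjusted p = 0.0423) rested on 224 reads, and the call was lost without Saline 1, 2, 3 or 4 or without LPS 1, 3 or 4 (0.0697 to 0.0948), and with no filter on low counts (0.0519).

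The calls of the remaining falls also changed with single libraries or with the method. 5031425E22Rik (-0.55) lost its call without Saline 2 (edgeR adjusted p = 0.0716) or LPS 3 (0.0512). The call of 1300002E11Rik (-0.59) was lost without Saline 1, 2 or 4 or any of the LPS libraries (0.0540 to 0.151). With all libraries kept it was also lost with RLE scaling (0.0580), when the 20 most abundant genes were kept out of the scaling (0.0566), with every counted gene tested (0.0673), with DESeq2 (0.0595) and limma voom (0.0884). The call of 3222401L13Rik (-0.52) was lost without Saline 1, 2, 3 or 4 or LPS 1, 3 or 4 (0.0546 to 0.0705), as it was with no filter (0.0593). E430024I08Rik lost its call without Saline 2 or LPS 1, 2, 3 or 4 (0.0522 to 0.0772), and BC002059 without Saline 2 or 4 or LPS 1, 2, 3 or 4 (0.0502 to 0.0676). Without Saline 2, 9 of the lincRNAs fell in place of 15.

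Markers of other cells moved in the same libraries. All 6 endothelial markers fell, and their sum was 911 to 1864 CPM in saline, where Saline 5 was the lowest, and 538 to 722 CPM after LPS. Of 6 neutrophil markers, 3 were tested and S100a8 rose, with a sum of 0.954 to 2.23 CPM in Saline 1 to 4, 16.3 CPM in Saline 5 and 6.80 to 28.1 CPM after LPS. Macrophage and monocyte markers summed to 184 to 287 CPM and to 185 to 295 CPM, with 1 of 7 higher and 2 lower after LPS, and the T cell markers to at most 1.97 CPM. Of 6 fibroblast markers, Pdgfra (log2 fold change -0.73) and Lum (-0.48) fell, with sums of 1045 to 1207 CPM in saline and 911 to 1191 CPM after LPS. Of 5 pericyte and smooth muscle markers tested, Pdgfrb fell (-1.06), with sums of 1017 to 1283 CPM and 826 to 1027 CPM. Beside these counts of markers, 18.9% of all genes tested rose and 21% fell. The part of these cells in the changes of the lincRNAs was not tested.

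**Figure D4:**
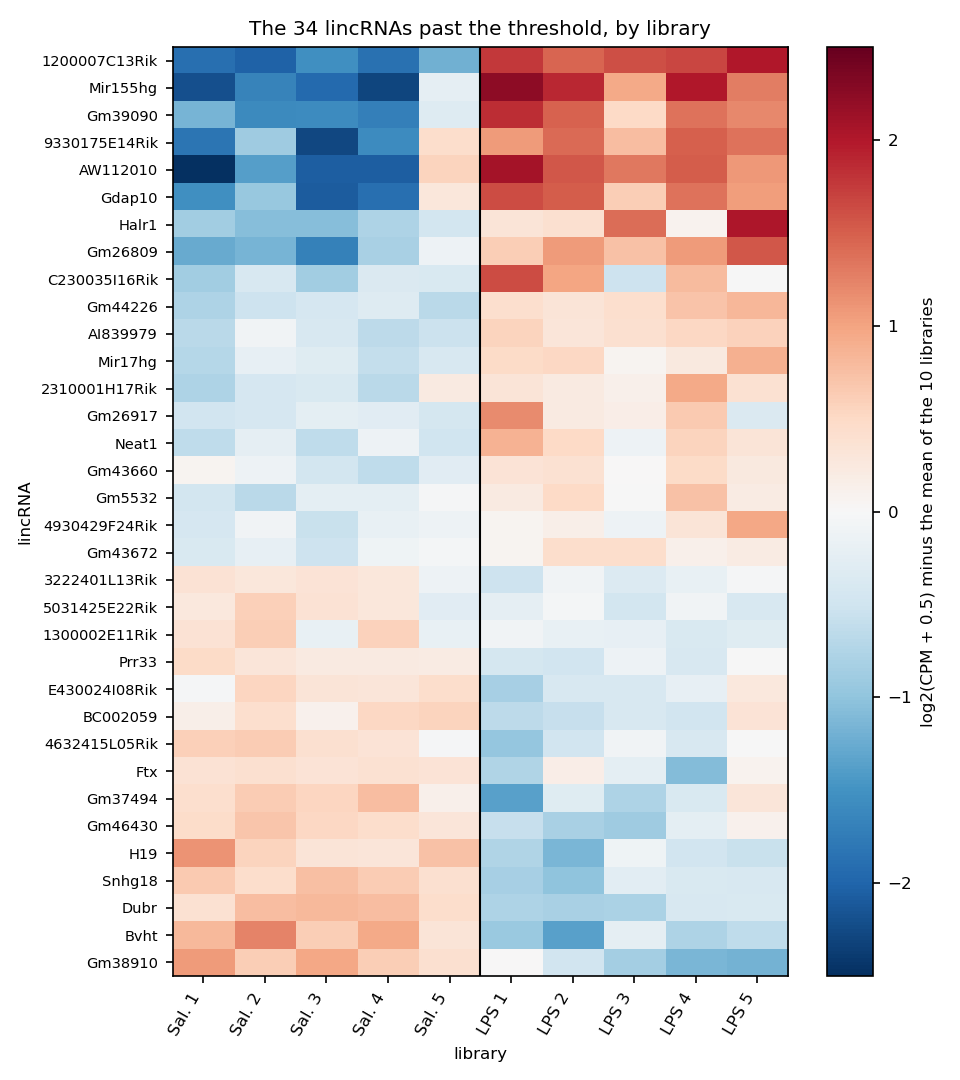
Log2(CPM + 0.5) of the 34 lincRNAs past the threshold, each as the difference from its mean over the 10 libraries (red higher, blue lower), with saline libraries to the left of the line. In the rows of 9330175E14Rik, AW112010 and Gdap10 the column of Saline 5 has the colour of the LPS side.

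Without Saline 5, 25 lincRNAs rose and 17 fell, and these included all 19 and all 15 of the full comparison. The share of lincRNAs that passed was 29.2%, against 44% of all genes tested in that setting. With all libraries the shares were 23.6% and 39.9%, so calls were gained among all genes as well. The lincRNAs added were Gm12381, Gm7160, Gm20186, AC130815.2, F730311O21Rik and D830032E09Rik, which were higher, and A430046D13Rik and Snhg20, which were lower. They are named because the library was left out, after their values had been seen. F730311O21Rik measured 1.49 ± 0.26 CPM in saline and 2.34 ± 0.77 CPM after LPS, a log2 fold change of 0.66 ± 0.26 with an edgeR adjusted p of 0.0562 with all libraries and 0.0338 without Saline 5. It also passed without LPS 1 (0.0474) or LPS 4 (0.0248), with RLE scaling (0.0478) and with DESeq2 (0.0462).

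Of the 144 lincRNAs, 110 did not pass the test, and their log2 fold changes lay between -0.69 and 0.83. They include the most abundant ones. 1700020I14Rik, known as Cyrano and for directing the decay of miR-7, had the highest CPM, with 387, 397, 344, 417 and 421 in saline and 311, 362, 287, 343 and 418 after LPS. The groups overlapped, and its log2 fold change was -0.19 ± 0.11 (edgeR adjusted p = 0.172, and 0.0341 without LPS 5). It passed as lower with upper quartile (-0.35, 0.0123) and total count scaling (-0.46, 0.00183). 2900097C17Rik, the mouse form of NORAD, which binds Pumilio proteins, measured 182 ± 13.9 CPM and 208 ± 28.4 CPM, a log2 fold change of 0.19 ± 0.10 (adjusted p = 0.148). 1810058I24Rik, which encodes a small mitochondrial protein, measured 65.1 ± 5.26 CPM and 68.0 ± 5.34 CPM, with the narrowest error of the lincRNAs named (0.062 ± 0.088, adjusted p = 0.608). Its sign turned with upper quartile (-0.10) and total count scaling (-0.22).

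On the authors' FPKM scale the order of mean levels was AW112010 (183), Gm10076 (89.2), Gm44386 (55.8), 1700020I14Rik (47.2), 2900097C17Rik (42.1), Malat1 (37.4) and Gm5532 (36.7). AW112010 led only through the LPS libraries: in saline it stood at 52.3 FPKM, below Gm10076 at 79.7 FPKM. Gm10076 varied by 55.1 FPKM (SD, n = 5) in saline and 52.1 FPKM after LPS, more than its step to Gm44386, and each further step down to Gm5532 was smaller than the SD within a group of one of the neighbours in this order. The median over the 144 was 2.04 FPKM, against 4.07 for protein-coding genes tested. In all, 39 of the 144 lay under 1 FPKM and 18 over 10 FPKM.

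The lists of noncoding RNAs by role were described by counts alone. They were drawn up with results of these data known, so their directions are not independent evidence. Each count is to be read against the 39.9% of all genes tested that passed, 18.9% upward and 21% downward. Of 10 imprinted RNAs listed, 7 were tested: H19 and Peg13 fell and Rian rose, and Meg3, one of the 144, measured 4.76 ± 1.00 and 6.54 ± 1.60 CPM (log2 fold change 0.46 ± 0.20, edgeR adjusted p = 0.0885, and 0.0439 without LPS 4). The median log2 fold change of that list was 0.020, against -0.025 over all genes tested. The list for nuclear bodies held 6 RNAs, of which 5 were tested. Neat1 and Gm26917 rose, Gm26917 with LPS 5 within the controls, and the median was 0.46. Whether Gm26917 belongs to a nuclear body was not tested.

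Hosts of snoRNAs are transcripts whose introns release small RNAs that guide the modification of ribosomal RNA, and whose spliced products are known targets of nonsense-mediated decay. Of 18 listed, 14 were tested: Snhg1, Snhg4 and Zfas1 rose, Snhg18 fell, and the median log2 fold change was 0.35. These 3 rises of 14 lie near the 18.9% of all genes, and the 4 calls of 14 under the 39.9%. Those among the 144 were Snhg18, Snhg6 (0.44 ± 0.23, edgeR adjusted p = 0.142), Snhg12 (0.43 ± 0.25, 0.193), Snhg20 (-0.69 ± 0.30, 0.0824) and Epb41l4aos (-0.17 ± 0.33, 0.716). Snhg20 passed without Saline 5 (0.0132) or LPS 5 (0.0339), and with upper quartile (0.0352) and total count scaling (0.0194).

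Of 21 hosts of miRNAs listed, 8 were tested: Mir155hg, Mir22hg, Mir17hg, Dnm3os and Rian rose, H19 and Dleu2 fell, against 18.9% and 21% of all genes tested, and the median was 0.55. Among 8 genes of miRNA processing, Dgcr8, the partner of Drosha, fell by 0.73 ± 0.16 on the log2 scale (edgeR adjusted p = 0.00191) and Ago1 fell by 0.94 ± 0.099 (6.51e-06). These 2 of 8 lie near the 21% of all genes tested that fell. The other 6 did not pass, and the median was -0.17. Of 20 noncoding RNAs listed for heart and vessel, 5 were tested. H19 and Bvht fell and none rose, against 21% and 18.9% of all genes tested, while Chaer1, a regulator of hypertrophy, measured 1.99 ± 0.49 and 1.92 ± 0.71 CPM (log2 fold change -0.059 ± 0.29, edgeR adjusted p = 0.894). Of 21 listed for immunity and stress, 9 were tested: Mir155hg, AW112010, Neat1, Gm16685 and Mir22hg rose and none fell, against 18.9% and 21% of all genes tested, with a median of 0.87.

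Neat1 builds paraspeckles with RNA-binding proteins. Among the proteins listed for paraspeckles and nuclear retention, Hnrnpk rose by 0.33 ± 0.074 on the log2 scale (edgeR adjusted p = 0.00281) and Sfpq by 0.31 ± 0.092 (0.0160). The core protein Nono was at 0.12 ± 0.076 (0.252). The median log2 fold change of the proteins listed was 0.048, against -0.025 over all genes tested. Hnrnpk and Sfpq lost their calls with upper quartile scaling (0.17 and 0.15) and total count scaling (0.054 and 0.039). Of 12 tested genes of the nuclear exosome and noncoding transcript turnover, Zfc3h1 (-0.94), Zcchc8 (-0.53) and Ints11 (-0.50) fell and none rose. These 3 of 12 lie near the 21% of all genes that fell and under the 39.9% that passed. The median of that list was -0.028.

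By gene models of GENCODE M21, 129 of the 144 had more than 1 exon and 15 had a single exon. Their distance to the nearest protein-coding gene, measured between gene bodies, had a median of 6.95 kb, against 2.68 kb between protein-coding genes. The gene body overlapped a coding gene in 17, lay under 5 kb away in 51, 5 to 50 kb away in 46 and over 50 kb away in 30. Of the 26 with a gap under 1 kb, 20 were divergent, that is, transcribed away from the coding gene from starts that face each other. In 29 the gene body overlapped another gene with at least 100 reads, and in 18 exons were shared.

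The nearest protein-coding gene was also tested for 123 of the 144. In 12 of these pairs both genes passed the threshold (9.76%), against 16.9% of 9181 pairs of a protein-coding gene and its nearest coding neighbour. They moved in the same direction in 9 pairs and in opposite directions in 3, a same-direction share of 75%, against 65.8% of 1554 coding pairs. Over the 123 pairs the log2 fold changes had a Pearson correlation of 0.34 and a Spearman correlation of 0.20, against 0.22 and 0.18 for coding pairs. The Pearson value was 0.19 without the filter on low counts, 0.21 with DESeq2 and 0.073 among lincRNAs with at least 500 reads; the coding pairs were not recomputed under these settings. Both genes of a pair come from the same libraries. Without Saline 5, pairs in the same direction numbered 12 and opposite pairs 5.

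**Figure D5:**
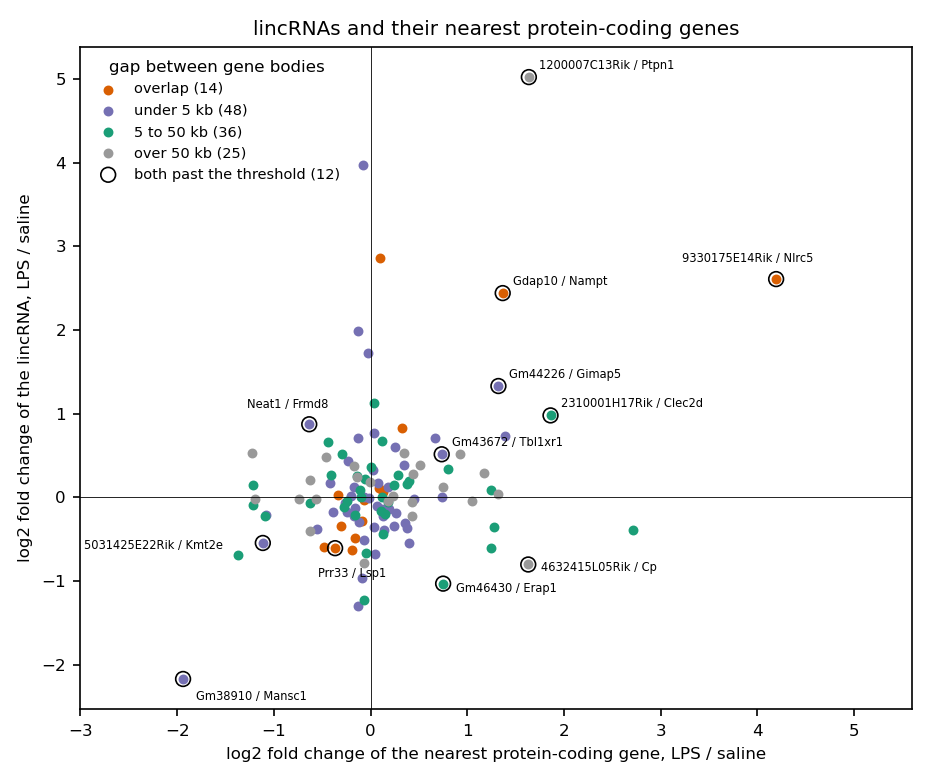
Log2 fold change of 123 lincRNAs against that of the nearest protein-coding gene, coloured by the gap between gene bodies, with the 12 pairs in which both passed the threshold circled and named. Of these, 9 lie in the quadrants of equal sign, and some lincRNAs with large rises, such as Mir155hg and Gm39090, sit at a neighbour value near 0.

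For each of the 12 pairs the log2 ratio of lincRNA to neighbour was compared between the groups by a two-sided exact permutation test over all assignments of 5 and 5 libraries, adjusted over the 12 pairs. The smallest p that this design allows is 0.00794, which becomes 0.0190. For the 3 pairs in opposite directions, being chosen for both calls fixed the sign of the difference, so no test of the ratio is given. In the 3 overlapping pairs the directions were alike, against 70.7% of 266 overlapping coding pairs with both genes past the threshold. 9330175E14Rik runs against Nlrc5, the transactivator of MHC class I genes, and shares 1.31% of its exon length with it. Nlrc5 rose from 9.74 ± 8.33 to 178 ± 24.7 CPM (log2 fold change 4.19, and 4.82 without Saline 5), and the ratio fell by 1.40 (exact permutation test, adjusted p = 0.0190, and 0.0816 with a prior count of 0.5). Gdap10 lies within the body of Nampt, an enzyme of NAD salvage, on the same strand, so unspliced reads of Nampt and reads of Gdap10 cannot be told apart. Nampt rose from 205 ± 78.5 to 529 ± 110 CPM (1.37), less than Gdap10. The ratio rose by 1.30 (exact permutation test, p = 0.00794 before adjustment and 0.0190 adjusted over all 12 pairs).

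Prr33 and Lsp1, an actin-binding protein of leukocytes, overlap on opposite strands and both fell, with no difference detected between their changes (-0.22, exact permutation test, adjusted p = 0.424). The call of Lsp1 (log2 fold change -0.37) was lost without any of Saline 1 to 4 or LPS 2 to 5 (edgeR adjusted p of 0.0529 to 0.142), and with all libraries also with RLE scaling (0.0640), scaling without the 20 most abundant genes (0.0624) and DESeq2 (0.0770).

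Of the 5 pairs under 5 kb apart without overlap, 4 moved in the same direction, against 69.8% of 510 coding pairs at that distance. So few pairs give little precision. Gm44226 ends 20 bases from Gimap5, a GTPase needed for the survival of lymphocytes, which rose from 6.06 ± 2.26 to 15.2 ± 4.97 CPM. Their log2 fold changes were 1.33 and 1.32. The change of the ratio was -0.057 (exact permutation test, adjusted p = 0.889). Gm43672 and Tbl1xr1, a subunit of nuclear corepressor complexes, are divergent with 510 bases between them and rose by 0.51 and 0.74 (ratio -0.20, adjusted p = 0.254). 5031425E22Rik and Kmt2e, a chromatin regulator, are divergent with 172 bases between them and fell by 0.55 and 1.11 (ratio 0.64, adjusted p = 0.131). Gm38910 and Mansc1, 1526 bases apart, fell by 2.17 and 1.94 (ratio -0.36, adjusted p = 0.424). In the pairs of this group for which a test is given, it found no difference between the changes, which does not show that they were equal.

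Closeness did not go with a shared change in every case. Snhg18, divergent from Sema5a at 148 bases, fell while Sema5a did not pass the test, and Mir155hg rose beside Mrpl39, 2331 bases away, which measured 56.8 ± 4.47 and 53.9 ± 7.92 CPM. Gm39090 rose by 2.86 within Bcl7c, which was at 0.093 ± 0.13 (edgeR adjusted p = 0.612). Neat1 rose while Frmd8, 4224 bases away, fell from 11.8 ± 3.17 to 7.60 ± 1.59 CPM, a change of the log2 ratio of 1.46. The call of Frmd8 was lost without Saline 1, 2 or 4 or LPS 1, 2 or 4 (edgeR adjusted p of 0.0535 to 0.0820), and with limma voom (0.0514).

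Among distant pairs, 1200007C13Rik rose, and so did Ptpn1, a phosphatase that acts on Janus kinases and lies 98411 bases away (log2 fold change 1.64). The log2 ratio changed by 2.79 with a prior count of 2 and by 3.40 with 0.5; with 18 saline reads of 1200007C13Rik, which reached 200 reads only through the LPS libraries, no test of it is given. 2310001H17Rik rose by 0.98. Clec2d, a ligand of an inhibitory receptor of natural killer cells, 21878 bases away, rose by 1.86, and by 2.5 without Saline 5. The log2 ratio changed by -1.16 (exact permutation test, p = 0.0238 before adjustment). The adjusted p of 0.0408 counts pairs for which no test is given, so no difference is claimed. The last pairs moved in opposite directions. Gm46430 fell while Erap1, which trims peptides for MHC class I, rose from 50.1 ± 6.01 to 84.4 ± 7.40 CPM at 21623 bases (change of the log2 ratio -1.81). 4632415L05Rik fell while Cp, the copper carrier ceruloplasmin, rose from 117 ± 41.4 to 362 ± 67.8 CPM at 58070 bases (change of the log2 ratio -2.49).

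RefSeq's table of promoters, windows of 300 bases from 250 before to 50 after a start on GRCm38.p6, held 84 of the 144 lincRNAs, with 105 windows in all. For 6 motifs either strand was searched; each was counted by itself, and none contains another. The NF-kappaB motif, with free letters only at its centre, as the capitals in the sequences below show it, stood in 2 of the 14 windows of lincRNAs that rose, in 0 of the 12 windows of those that fell and in 0 of the 79 others, against 1.47% of all 32851 windows. The 14 windows come from 12 lincRNAs. Both windows that hold the motif belong to lincRNAs named above, AW112010 and 9330175E14Rik, and are printed 5′ to 3′ along the gene, with the match in capitals. The window of 9330175E14Rik lies within the body of Nlrc5, which also rose, so its match cannot be assigned to either gene alone. The match lies on the opposite strand in both windows, 70 and 118 bases before the start.
AW112010, chr19:11050517-11050816, minus strand: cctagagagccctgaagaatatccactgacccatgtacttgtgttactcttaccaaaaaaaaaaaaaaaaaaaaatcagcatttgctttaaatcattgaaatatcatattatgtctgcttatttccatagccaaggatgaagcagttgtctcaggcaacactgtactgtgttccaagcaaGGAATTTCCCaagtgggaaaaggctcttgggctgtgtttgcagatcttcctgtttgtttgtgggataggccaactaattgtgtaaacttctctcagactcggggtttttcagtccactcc
9330175E14Rik, chr8:94435054-94435353, minus strand: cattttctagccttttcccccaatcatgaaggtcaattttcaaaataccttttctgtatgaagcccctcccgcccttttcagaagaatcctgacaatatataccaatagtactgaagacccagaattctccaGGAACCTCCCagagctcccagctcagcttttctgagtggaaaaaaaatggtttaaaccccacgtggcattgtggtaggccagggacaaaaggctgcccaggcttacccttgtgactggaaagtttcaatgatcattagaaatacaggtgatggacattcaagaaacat

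The interferon response motif stood in none of the 14 windows of lincRNAs that rose and in 5 of the 79 windows of those that did not pass, against 3.44% of all windows. The AP-1 motif TGANTCA was in 0 of 14 and 8 of 79 (7.81% of all), and the C/EBP motif TTGCNNCAA in 1 of 14, that of Gdap10, and 0 of 79 (2.08% of all). The E-box CACGTG was in 1 of 14, that of 9330175E14Rik, and 5 of 79 (7.15% of all), and the CRE motif TGACGTCA in 0 of 14, in 1 of the 12 windows of lincRNAs that fell (1300002E11Rik) and in 2 of 79 (1.79% of all). A match is a string of letters in a window and was not tested as a binding site.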

How the data were processed

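RNA of 10 mouse hearts, 5 saline and 5 LPS, was made into libraries with the TruSeq RNA kit of Illumina (labels' protocols). The authors deposited read counts per gene for 54532 Ensembl genes. Per the submitters' processing notes, Bowtie 0.12.2 and the mm9 build were named. The counter, its annotation and its strand setting are not given in the sources used, so reads of overlapping genes cannot be told apart. Of the gene identifiers, 54409 are in GENCODE M21 (GRCm38) and 53499 have the same start and end there, so coordinates are given as GRCm38. The deposited FPKM columns (counts per kilobase of gene and library size) served only to compare levels between genes. Further deposited tables hold 20 columns that were not used, and the LPS columns there are named for 3 h. Groups were taken from the labels (24 h).

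Genes kept by edgeR's filterByExpr (minimum count 10, minimum total 15; 13864 genes, all 144 lincRNAs among them) were compared with R 4.3.3 and edgeR 4.0.16. TMM factors, the robust quasi-likelihood F-test and Benjamini-Hochberg adjustment over all genes tested were used, with a threshold of 0.05. Standard errors come from the F statistic, and CPM use the effective library size. The p-values measure only the spread between these libraries. Pairs were tested on log2 CPM ratios with a prior count of 2. On simulated counts for 13864 genes of this comparison, 9, 33, 47 and 50 of 50 genes changed 1.5-, 2-, 4- and 8-fold were recovered, with 5 false calls of 144. The changed genes were few and drawn from the better covered of all genes tested, whereas 39.9% passed in the data. These rates therefore do not describe recovery among the thinly covered lincRNAs.

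Genes were named by rule: lincRNAs of the lists, the 10 highest and 10 lowest changes without overlap, the 8 most abundant, the 12 closest pairs with both genes past the threshold, those beside the limit of 200 reads, and their neighbours. Other lincRNAs past the threshold, and those highest in FPKM or gained without Saline 5, were named after their values were seen. A few genes of the lists are not reported here, and the counts of their lists are left out. Members and lists were chosen with earlier results of these data known. Alternatives were scaling by RLE, by the upper quartile, by total counts or without the 20 genes of highest count, other filters, DESeq2 1.42.0, limma 3.58.1 voom, a replicate block, each library left out, and other limits on reads, overlap and distance.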

Additional observations from a re-analysis of the deposited data

Results flagged for a closer look

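Among the lincRNAs named, 76 groups of 5 libraries were screened for a library far from the others (its gap to the nearest one above 0.71 of the group's range). Chance flags about 1 in 20 groups. In 6 groups a library stood out, 4 of them with Saline 5. Mir155hg was at 2.08 CPM in Saline 5, against 0.116 to 0.446 CPM in Saline 1 to 4. 9330175E14Rik was at 3.15 CPM there, against 0.0561 to 0.947 CPM. AW112010 was at 114 CPM, against 12.2 to 29.3 CPM, and Gdap10 at 6.42 CPM, against 0.841 to 2.45 CPM. All 4 rose after LPS with Saline 5 in the comparison and without it. Among the LPS libraries, 2310001H17Rik was at 4.42 CPM in LPS 4, against 2.27 to 2.84 CPM in the others, and 2900097C17Rik at 257 CPM in LPS 5, against 189 to 204 CPM.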

How the results depend on the processing

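Total count scaling gave 1711 genes that rose and 5774 that fell, and upper quartile scaling 4407 that fell. The lincRNAs that fell numbered 26 with upper quartile scaling and 36 with total count scaling. With a limit of 100 reads, 27 rose and 24 fell of 224 lincRNAs tested (22.8%). With 500 reads 10 rose and 11 fell of 78 (26.9%), and with 1000 reads 7 rose and 6 fell of 37 (35.1%). The main comparison had 23.6% of 144, so the share that passed was larger at the higher limits, where the counts were smaller. Of the 76 among the 144 that lay at least 5 kb from a coding gene, 8 rose and 8 fell (21.1%). Leaving out 1 library gave 18 to 25 rises and 9 to 17 falls (9 without Saline 2). Pairs moving in the same direction numbered 18 with total count scaling, 15 at 100 reads, 4 at 500 and 4 at 1000. Opposite pairs numbered 5 with RLE scaling, 7 with total count scaling, 5 without the filter on low counts, 6 with DESeq2, 5 at 100 reads, and 2 to 5 with a library left out (5 without Saline 5). The log2 ratio of 9330175E14Rik to Nlrc5 changed by -1.06 with a prior count of 0.5, against -1.40 with a prior count of 2.

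Reversed signs, none of a gene past the threshold, were Malat1 with upper quartile (-0.068) and total count scaling (-0.17) and without Saline 3 or LPS 5 (-0.052 to 0.20 over all libraries left out), 2900097C17Rik with total count scaling (-0.075), and 1810058I24Rik with upper quartile (-0.10) and total count scaling (-0.22). Chaer1 turned without Saline 5, LPS 3 or LPS 5 (-0.23 to 0.12), Epb41l4aos without LPS 2 (-0.35 to 0.070), and Nono with upper quartile (-0.043) and total count scaling (-0.16). The causes were not tested, except that the 2 scalings shift all genes downward. Over the genes named, 1052 values under alternatives kept their direction and side of the threshold, 81 lost the call and 13 gained one.

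The replicate numbers do not pair the libraries: correlations of deviations lay between -0.069 and 0.18 over 5 pairs, 1 was over 0.1, and 1 of 5 libraries correlated best with its own number. With the replicate block 21 lincRNAs rose and 12 fell, among them 18 of the 19 and 12 of the 15. Of the 144, 107 had under 1000 reads. The part of depth in the number of calls was not tested.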
